A study of Mus musculus with 56 samples.

Results

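The regulators described here are 10 genes of the PPAR and PGC-1 system, and they were followed in the heart of mice fed by day or by night. They are the receptor genes Ppara, Ppard and Pparg, the partner genes Rxra and Rxrg, the coactivator genes Ppargc1a, Ppargc1b and Lpin1, and the estrogen-related receptor genes Esrra and Esrrg. The genes were chosen by name, for their known place in this system, and they are 10 of the 22864 genes listed in the deposited data. All 10 had reads in every library and passed the filter on low values. PolyA RNA-seq was made from hearts of female C57BL/6J mice, an inbred strain, aged 9 weeks. The mice lived in groups in a light:dark cycle of 12 h each and ate chow freely for a week. For the next 7 days one set could eat only by day (daytime-restricted feeding, DRF) and the control set only by night (nighttime-restricted feeding, NRF). Hearts were collected every 4 h between ZT0 and ZT24, where ZT, zeitgeber time, counts the hours since the lights came on. Both regimens were sampled at all 7 times with 4 libraries each, which gives 14 groups and 56 libraries. The labels number these libraries without naming animals, so the p-values measure only the spread between these libraries, which may be technical.

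Levels are given as TPM, reads per base of exon scaled to 1 common sum in every library, and they were recomputed from the reads behind the deposited values. Libraries held 29.3 to 53.0 M reads, with a median of 37.4 M. The precision per gene follows from its reads, which ran from 321 to 880 per library for Pparg and from 5140 to 11388 for Esrra. The 8 cardiomyocyte markers were all detected and summed to between 25000 and 39200 TPM. By their 1000 most variable genes, 4 libraries lay nearer to the means of at least 6 other groups than to their own: DRF ZT4 replicates 1 and 2, DRF ZT20 replicate 2 and NRF ZT8 replicate 1. Summed red blood cell markers ranged from 1680 to 67300 TPM and were highest in DRF ZT4 replicate 2, with DRF ZT20 replicate 2 next at 52200 TPM. Without these 4 libraries 4 of the 30 calls on regulators were lost and 7 others were gained, and the values of these calls are given beside the results. In whole hearts, fewer cells of a type and less RNA per cell cannot be told apart.

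PPARs are nuclear receptors that bind fatty acids and their derivatives. They act on DNA as dimers with a retinoid X receptor (RXR), and in heart muscle they switch on genes of fatty acid uptake, oxidation and mitochondrial uncoupling. PGC-1 coactivators, encoded by Ppargc1a and Ppargc1b, have no DNA-binding domain of their own and are recruited by PPARs and by estrogen-related receptors (ERRs), which drive oxidative phosphorylation genes. Lipin-1, encoded by Lpin1, is a phosphatidate phosphatase that also assists PPAR alpha and PGC-1 alpha in the nucleus. The activity of all these proteins depends on ligands, modification and location too, and transcript levels show none of these.

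The sequences just upstream of Lpin1, Ppargc1a and Esrra are shown because these members have a single annotated start site and a rhythm or a feeding difference among the results. Each is the 250 bases before the start, 5′ to 3′ on the gene's strand, from RefSeq (GRCm38.p6), with any match to a searched motif in capitals. They lie on the minus strand at chr12:16610967-16611216 (Lpin1), chr5:51567726-51567975 (Ppargc1a) and chr19:6921809-6922058 (Esrra).
Lpin1: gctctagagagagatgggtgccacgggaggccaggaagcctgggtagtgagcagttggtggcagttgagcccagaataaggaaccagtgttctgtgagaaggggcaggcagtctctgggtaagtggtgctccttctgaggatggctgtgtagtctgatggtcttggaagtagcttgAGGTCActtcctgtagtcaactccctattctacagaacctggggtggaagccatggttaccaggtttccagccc
Ppargc1a: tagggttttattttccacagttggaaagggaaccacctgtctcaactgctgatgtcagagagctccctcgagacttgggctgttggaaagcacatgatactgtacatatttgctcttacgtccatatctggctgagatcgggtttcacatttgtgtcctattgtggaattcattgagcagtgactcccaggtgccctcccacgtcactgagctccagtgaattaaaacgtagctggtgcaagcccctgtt
Esrra: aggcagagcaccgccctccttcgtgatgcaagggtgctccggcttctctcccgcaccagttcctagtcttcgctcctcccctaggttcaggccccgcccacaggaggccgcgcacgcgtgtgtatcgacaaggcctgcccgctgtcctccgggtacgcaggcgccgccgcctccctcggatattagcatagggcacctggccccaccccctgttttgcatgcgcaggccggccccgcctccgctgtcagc

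The motifs were searched on both strands of the upstream windows of 9 members, since Ppargc1b has no entry in the table. The hexamer AGGTCA, the core element of nuclear receptors, occurs in 14% of the 32817 upstream windows of this length. It stands at −74 in the Lpin1 window. It also occurs in 2 of the 3 Pparg windows, in 1 of the 2 Rxra windows (both strands) and in 1 of the 2 Rxrg windows. Longer motifs were absent from these windows of the members. These were the E-box CACGTG (6.02% of all windows), the cAMP response element TGACGTCA (1.55%), the ERR element TNAAGGTCA (1.14%), the D-box TTATGTAA (0.817%), the ROR element AANTAGGTCA (0.177%) and the direct repeat AGGTCANAGGTCA (0.0335%). The last element, the ERR element and the ROR element all contain the hexamer. A match is a string of letters and not a measured binding site.

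The regulators differed widely in level and little over the day. Esrra was the most abundant, at 176 ± 17.2 TPM (SD over 56 libraries), followed by Rxrg at 59.2 ± 7.78 TPM. Lpin1 (37.9 ± 6.03 TPM) and Rxra (37.0 ± 2.81 TPM) differed by less than their spread. Ppargc1a (27.4 ± 5.73 TPM), Ppara (19.9 ± 3.44 TPM) and Esrrg (13.9 ± 2.23 TPM) came next. Pparg (11.2 ± 1.94 TPM), Ppard (11 ± 1.21 TPM) and Ppargc1b (10.8 ± 2.23 TPM) closed the order and lay within each other's spread. The ratio of the highest to the lowest of a member's 14 group means was greatest for Ppargc1a, at 1.85, and smallest for Rxra, at 1.2. Both the level of Esrra and its comparisons between libraries rest on a fitted exon length of 2539 bases, where the annotation gives 4387. Its reads were recovered with that length from deposited values on a logarithmic scale. Of the annotated Esrra exons, 1.66% overlap Trmt112 on the other strand and 2.07% overlap Mir6990, so a small share of its reads is uncertain. The other members share no exon bases with a neighbour. By the GENCODE M21 annotation (GRCm38), the PPAR genes lie at chr15:85734983-85802819 (Ppara), chr17:28232700-28301474 (Ppard) and chr6:115360951-115490399 (Pparg), and the RXR genes at chr2:27676440-27762957 (Rxra) and chr1:167598384-167639623 (Rxrg). Ppargc1a lies at chr5:51454250-51567726, Lpin1 at chr12:16535669-16610966, Esrra at chr19:6910977-6921813 and Esrrg at chr1:187608791-188214885, and Ppargc1b is on chromosome 18. Reads were counted over the exons of each gene, coding and untranslated parts together.

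**Figure D1:**
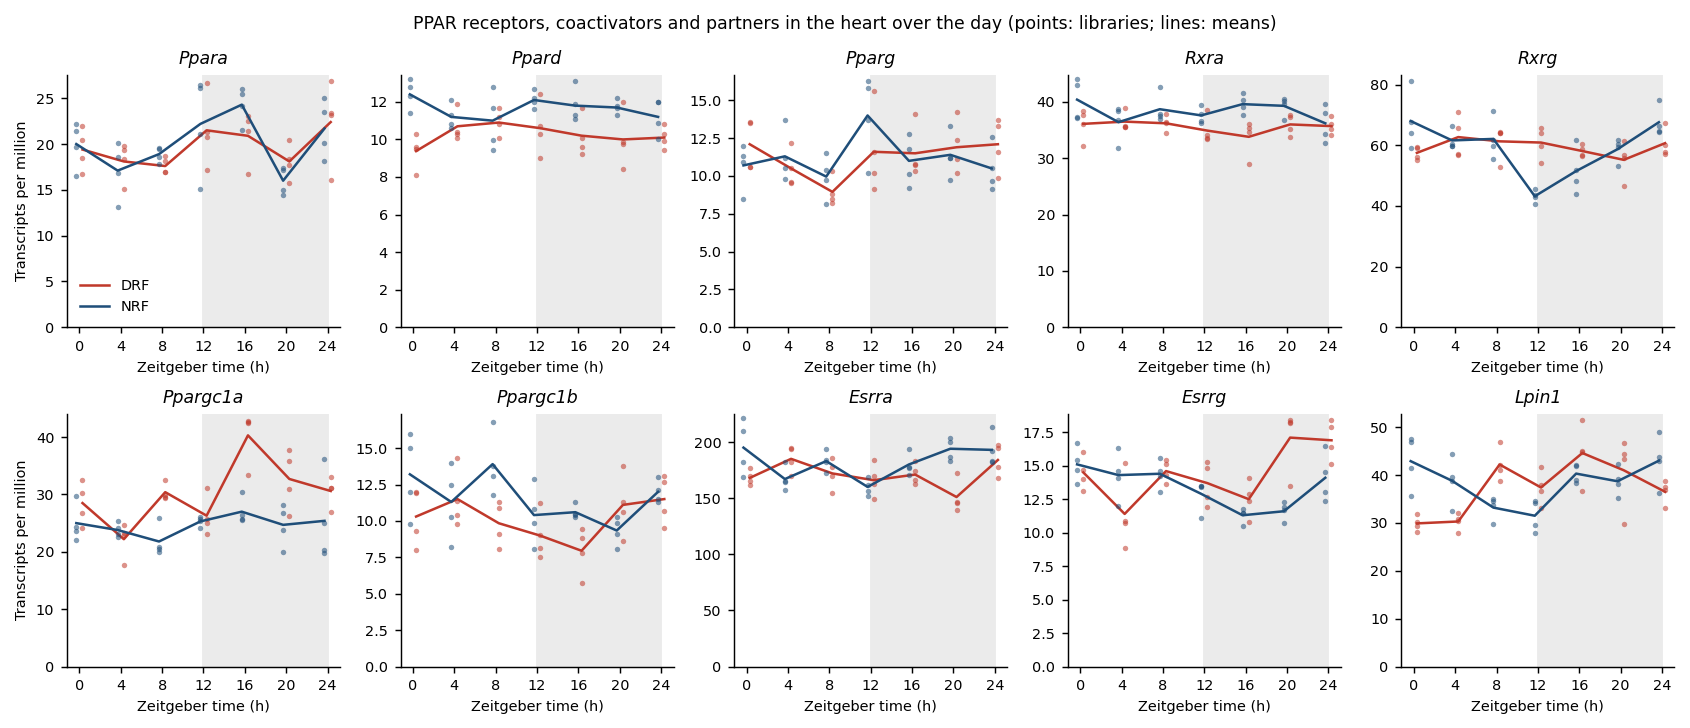
TPM of each regulator (vertical axis, from 0) against zeitgeber time in hours (horizontal axis), with points for the 56 libraries and lines for the means of 4 libraries, DRF in red and NRF in blue, the dark phase shaded. Rxrg under NRF dips to a mean of 43.2 at ZT12, Ppargc1a under DRF reaches 40.3 at ZT16, and Esrrg under DRF reaches 17.1 at ZT20, while Rxra stays between means of 33.8 and 40.4.

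The first question was whether the regulators move with feeding as fatty acid oxidation genes do. It was asked at ZT4, ZT8, ZT16 and ZT20, where each library lay at least 4 h inside a feeding or a fasting period. Fed groups were DRF ZT4, DRF ZT8, NRF ZT16 and NRF ZT20, and fasted groups were the other regimen at the same times, so that feeding and light phase were crossed. The study named 6 genes of fatty acid oxidation, and 4 of them were lower in the fed state. They were Ucp3, a mitochondrial uncoupling protein, at −1.43 ± 0.22 log2 (SE, adjusted p = 1.39e-05), Ehhadh, a peroxisomal oxidation enzyme, at −0.66 ± 0.09 (2.8e-06), Cpt1a, which loads fatty acids for mitochondria, at −0.56 ± 0.09 (2.29e-05), and Lipe, hormone-sensitive lipase, at −0.43 ± 0.08 (0.000325). The differences for the acyl-CoA dehydrogenase Acad11 and the oxidase Acox3 were 0.05 (0.475) and 0.01 (0.901). The study chose this list on these samples, so its direction is no independent evidence.

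Among the regulators, Esrrg was lower and Esrra was higher in the fed state, and the other 8 did not pass the test. The background is that 9.85% of the 13893 genes tested were called, with 7.00% higher and 2.85% lower. The median difference over the 10 regulators was −0.04 log2, beside −0.49 for the fatty acid oxidation genes and 0.03 for all genes tested. The share of higher genes among all calls depended on the scaling, with 973 of 1369 here, 888 of 1854 under median-of-ratios scaling and 503 of 1562 on the values as deposited. The intervals of the regulators were narrow. For Ppara, the receptor that names the pathway in heart, the fed minus fasted difference was 0.01 log2 with a 95% interval of −0.13 to 0.15. No regulator's interval reached the estimate of Lipe, the smallest of the 4 feeding-linked oxidation genes.

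**Figure D2:**
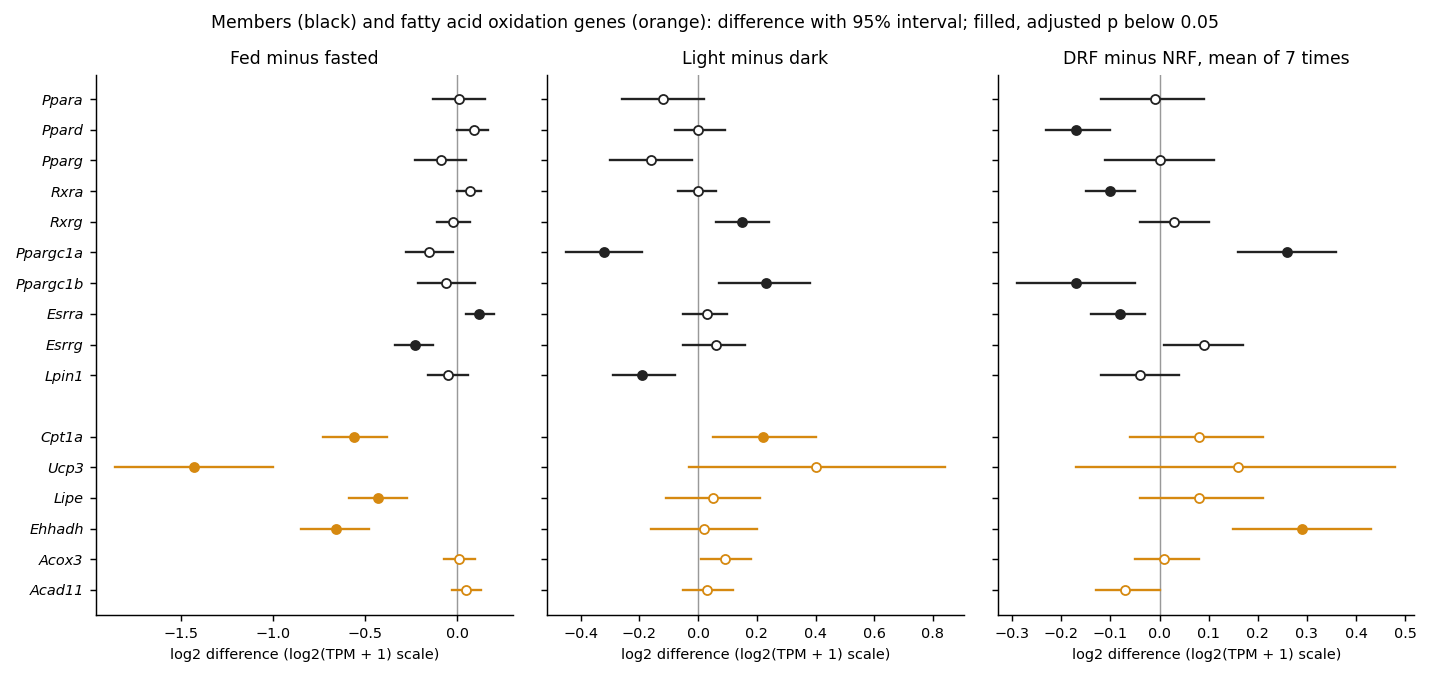
Differences on the log2(TPM + 1) scale with 95% intervals (horizontal axes) for the 10 regulators in black and the 6 fatty acid oxidation genes in orange (rows), for fed minus fasted, light minus dark and DRF minus NRF over all 7 times, with filled points where the adjusted p is below 0.05. In the first panel Esrrg (−0.23) and Esrra (0.12) are the filled regulators, while Ucp3 lies at −1.43.

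**Figure D3:**
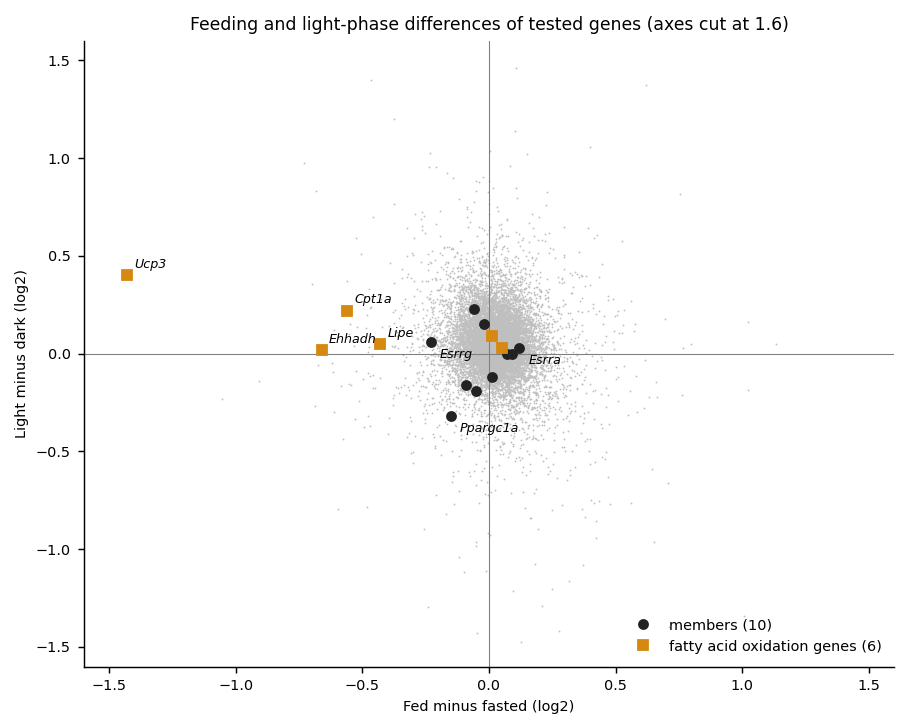
Fed minus fasted log2 difference (horizontal) against light minus dark log2 difference (vertical) for the genes tested (grey), with the 10 regulators as black circles and the 6 fatty acid oxidation genes as orange squares, the axes ending at 1.6. The regulators lie close to 0 on the feeding axis, and Ppargc1a is the lowest of them on the light axis at −0.32.

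Esrrg encodes ERR gamma, a receptor without a known natural hormone that keeps oxidative metabolism high in heart and slow muscle. In the dark phase it ranged from 10.5 to 12.3 TPM in the 8 fed libraries (median 11.6) and from 10.8 to 18.4 TPM in the 8 fasted libraries (median 13.8). In the light phase the fed libraries ranged from 8.88 to 15.4 TPM (median 13.9) and the fasted ones from 12.0 to 16.3 TPM (median 14.4). The fasted values were the higher on median in both phases, but the ranges overlapped in each. The fed minus fasted difference was −0.23 ± 0.05 log2 (adjusted p = 0.00257), and it ranked within the top 4.58% of all genes by size.

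The Esrrg difference was uneven over the day. At ZT20, DRF libraries had 18.4, 13.5, 18.3 and 18.2 TPM and NRF libraries had 12.3, 11.9, 10.7 and 11.7 TPM. All 4 fasted DRF values lay above all 4 fed NRF values, by 0.51 ± 0.11 log2 (adjusted p = 0.000951). At ZT4, DRF libraries had 15.2, 8.88, 10.7 and 10.9 TPM and NRF libraries had 12.0, 14.6, 14.1 and 16.3 TPM. Here 3 of the fed DRF libraries were below every fasted NRF library, and the difference of −0.31 ± 0.11 log2 did not pass the test (adjusted p = 0.184). At ZT8 and ZT16 the DRF minus NRF differences were 0.02 and 0.13 log2. The call was lost when ZT4 (−0.15, adjusted p = 0.132) or ZT20 (−0.14, adjusted p = 0.249) was left out.

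Of the libraries that stood apart, DRF ZT4 replicate 1, at 15.2 TPM of Esrrg, had 99.7 TPM of Ucp3 where the other 3 libraries of its group had 8.63 to 18.3 TPM. DRF ZT20 replicate 2 was the low Esrrg value at that time. Without the 4 libraries that lay nearer to other groups, the fed minus fasted difference of Esrrg was −0.28 log2 (adjusted p = 2.56e-05), that at ZT4 was −0.37 (0.0348) and that at ZT20 was 0.61 (1.49e-05). With only DRF ZT4 replicate 1 left out, the ZT4 difference was −0.45 (0.00825). Under DRF the mean of Esrrg was 12.5 TPM at ZT16 and 17.1 TPM at ZT20, and that of Ucp3 was 20.1 and 98.3 TPM at these times. Differences between times of a regimen were not tested singly.

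**Figure D4:**
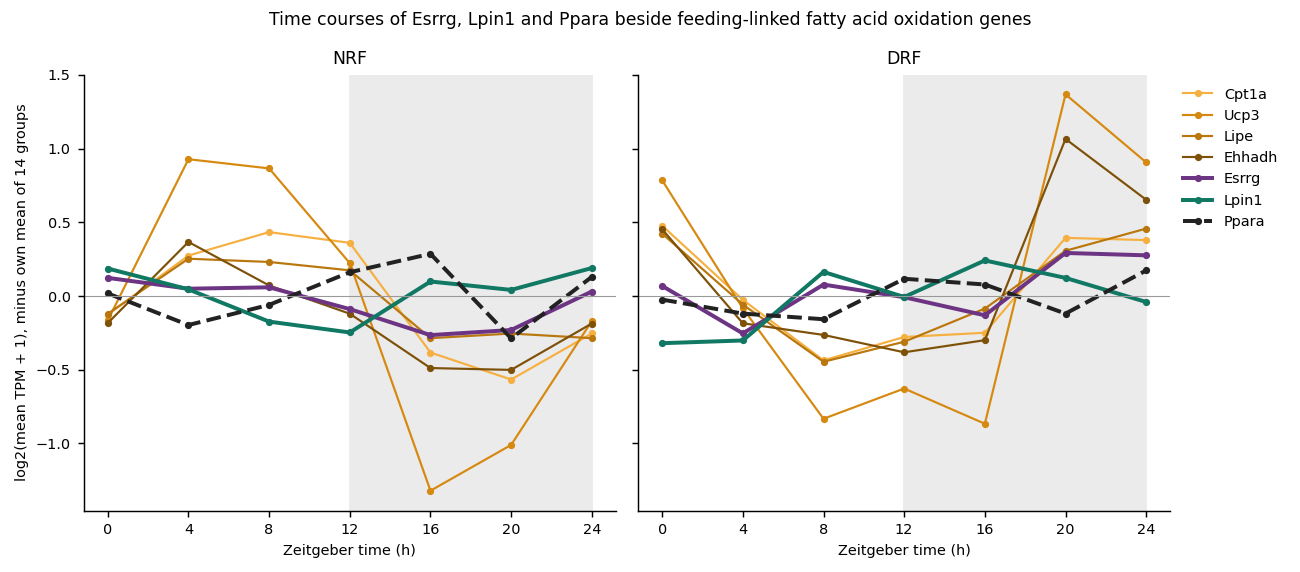
Log2(mean TPM + 1) minus each gene's own mean over the 14 groups (vertical axis) against zeitgeber time in hours (horizontal axis), NRF left and DRF right, for Esrrg, Lpin1 and Ppara (thick lines) beside the feeding-linked genes Cpt1a, Ucp3, Lipe and Ehhadh (thin lines); each point is a mean of 4 libraries. Under DRF Esrrg and the thin lines are high at ZT20, whereas Lpin1 has its highest mean, 44.6 TPM, at ZT16.

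Esrra encodes ERR alpha, the main partner of PGC-1 alpha on mitochondrial genes, and it moved the opposite way. In the dark phase the 8 fed libraries ranged from 171 to 204 TPM (median 185) and the 8 fasted ones from 139 to 183 TPM (median 164). In the light phase the ranges were 155 to 195 TPM (median 180) and 157 to 194 TPM (median 177). In the dark phase most fed values lay above most fasted ones, with an overlap between 171 and 183 TPM, and in the light phase the ranges nearly coincided. The fed minus fasted difference was 0.12 ± 0.04 log2 (adjusted p = 0.0243), and it did not pass under median-of-ratios scaling (0.10, adjusted p = 0.0904). Nor did it pass on the deposited values, which do not rest on the fitted exon length (adjusted p = 0.294). Without the 4 libraries that stood apart it was 0.14 (adjusted p = 0.0108).

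The largest single contrast of Esrra was at ZT20. DRF libraries had 139, 147, 172 and 146 TPM there, and NRF libraries had 183, 204, 200 and 187 TPM. All DRF values lay below all NRF values, by 0.36 log2 (DRF minus NRF −0.36 ± 0.07, adjusted p = 0.00079), and without the 4 libraries that stood apart the difference was −0.35 (0.00248). On the deposited values the ZT20 difference did not pass (adjusted p = 0.0614). Esrrg and Esrra thus differed between regimens in opposite directions at this time. When ZT20 or ZT4 was left out, the adjusted p of the Esrra fed minus fasted difference became 0.636 or 0.554.

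Of the PPAR receptors themselves, none passed the fed versus fasted test. Ppara ranged from 15.1 to 19.8 TPM in fed and from 13.1 to 20.1 TPM in fasted libraries of the light phase, with medians of 18.2 and 18.6. In the dark phase it ranged from 14.4 to 26.0 TPM when fed (median 19.5) and from 15.8 to 23.1 TPM when fasted (median 19.4). Fed and fasted hearts overlapped almost fully in both phases, and Ppara passed no test in these comparisons with all times and libraries in the fit. Its light minus dark difference was −0.12 log2 (adjusted p = 0.184), and it passed under median-of-ratios scaling at −0.18 (0.0434) and without ZT20 at −0.31 (0.00664). Its widest contrast lay inside the fed dark groups, where NRF ZT16 averaged 24.3 ± 2.01 TPM and NRF ZT20 16 ± 1.54 TPM (SD, n = 4).

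Ppard, whose product is the broadly expressed delta receptor, differed in level between the regimens. Its mean was 10.3 ± 1.05 TPM over the 28 DRF libraries and 11.7 ± 0.936 TPM over the 28 NRF libraries, a DRF minus NRF difference of −0.17 ± 0.03 log2 (adjusted p = 0.000187). At ZT0, DRF libraries had 8.08, 9.61, 10.3 and 9.50 TPM and NRF libraries had 12.8, 11.4, 13.2 and 12.3 TPM. The values did not overlap, and the difference of −0.38 ± 0.09 log2 passed the test (adjusted p = 0.00239), but not without replicate number 1 (−0.30, adjusted p = 0.0891). At ZT24, the same clock hour, the difference was −0.14 log2 (adjusted p = 0.332), with ranges of 9.42 to 10.8 and 10 to 12 TPM. The fed minus fasted difference was 0.09 log2 (adjusted p = 0.196), and 0.13 (0.0499) without replicate number 4.

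Pparg, best known as the regulator of fat cell formation, was read from the fewest reads of the 10. Its fed minus fasted difference was −0.09 log2 with a 95% interval of −0.23 to 0.05. Its light minus dark difference was −0.16 log2 (adjusted p = 0.0795), and it passed under median-of-ratios scaling at −0.21 (0.00634) and without ZT4 at −0.25 (0.029). The highest library values were 16.3 TPM in NRF ZT12 replicate 2, 15.8 TPM in NRF ZT12 replicate 1 and 15.6 TPM in DRF ZT12 replicate 2. Fat cell markers varied between libraries as well. Summed over the 10 adipocyte markers, they ranged from 108 to 409 TPM under DRF (median 181) and from 118 to 377 TPM under NRF (median 168), and Adipoq, a defining marker, ranged from 0.752 to 34.1 TPM. The highest adipocyte sum, 409 TPM, was in DRF ZT12 replicate 2, and the highest Adipoq value was in DRF ZT16 replicate 2, where Pparg was 14.1 TPM against 10.3 to 10.8 TPM in the rest of its group. The markers and Pparg were not high together in every library. DRF ZT24 replicate 3 and NRF ZT16 replicate 2, with sums of 376 and 377 TPM, had 11.6 and 11.8 TPM of Pparg, and the library highest in Pparg had a sum of 215 TPM. With the summed atrial and adipocyte markers as covariates, the light minus dark difference of Pparg was −0.10 log2 (adjusted p = 0.298).

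The RXR genes encode the obligate partners of the PPARs. Rxra was steady, with a lowest library of 29.0 TPM and a highest of 44.1 TPM, and its fed minus fasted difference was 0.07 log2 (95% interval 0.00 to 0.13, adjusted p = 0.226). DRF hearts averaged 35.6 ± 2.13 TPM and NRF hearts 38.3 ± 2.77 TPM (SD, 28 libraries each), a difference of −0.10 ± 0.03 log2 (adjusted p = 0.0024), which was −0.05 (0.0493) under median-of-ratios scaling. At ZT16, DRF libraries had 36.1, 34.7, 35.3 and 29.0 TPM and NRF libraries had 39.1, 41.6, 40.3 and 37.6 TPM. All DRF values were the lower (−0.23 ± 0.07 log2, adjusted p = 0.0299), but without DRF ZT16 replicate 4 the adjusted p was 0.248, and without NRF ZT16 replicate 2 or 3 it was 0.102 or 0.0803. Under median-of-ratios scaling the ZT16 difference was −0.12 log2 (adjusted p = 0.124).

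Rxrg, the isoform typical of striated muscle, differed most between regimens at ZT12. At this end of the light phase NRF libraries had 45.6, 40.7, 43.7 and 42.9 TPM and DRF libraries had 64.2, 54.2, 65.7 and 59.7 TPM. NRF mice had by then been without food for 12 h, and DRF mice had reached the end of their feeding period. The groups did not overlap, and the difference was 0.48 ± 0.09 log2 (adjusted p = 0.000834). Under NRF, Rxrg ran from a mean of 43.2 TPM at ZT12 to 68.0 TPM at ZT0, whereas under DRF its means stayed between 55.2 and 62.7 TPM. The fed minus fasted difference, which leaves ZT12 out, was −0.02 log2 (95% interval −0.11 to 0.07).

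Among the coactivators, Ppargc1a passed the tests of light phase and of regimen, and that of feeding only when ZT8 was left out. Its product, PGC-1 alpha, is known for induction by fasting, cold and exercise. In the light phase Ppargc1a ranged from 17.7 to 32.6 TPM in fed libraries (median 27.0) and from 20 to 25.9 TPM in fasted ones (median 22.8). In the dark phase it ranged from 20 to 30.4 TPM when fed (median 26.1) and from 26.2 to 42.8 TPM when fasted (median 36.8). Fasted values were the higher on median in the dark phase and fed values in the light phase. The latter came from ZT8 alone, since at ZT4 the fed DRF group averaged 22.2 ± 3.02 TPM and the fasted NRF group 23.8 ± 1.23 TPM (SD, n = 4), a DRF minus NRF difference of −0.11 log2 (adjusted p = 0.809). The fed minus fasted difference of −0.15 log2 did not pass the test (95% interval −0.28 to −0.02, adjusted p = 0.143), but without ZT8 it was −0.29 and passed (adjusted p = 0.0166). Light minus dark was −0.32 ± 0.06 log2 (adjusted p = 0.000113).

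The regimens differed most for Ppargc1a early in the night. At ZT16, DRF libraries had 42.6, 42.8, 42.4 and 33.4 TPM and NRF libraries had 25.7, 30.4, 25.5 and 26.5 TPM. Every DRF value lay above every NRF value, by 0.56 ± 0.13 log2 (adjusted p = 0.00565), a call that was lost without replicate number 3 (0.51, adjusted p = 0.0993). At ZT20 the DRF values were 37.8, 26.2, 31.0 and 35.9 TPM and the NRF values 26.7, 28.2, 20 and 23.8 TPM. These overlapped, and the difference of 0.39 ± 0.13 log2 (adjusted p = 0.0316) was not called without any one of 4 libraries (adjusted p = 0.0597 to 0.14), namely DRF ZT20 replicates 1 and 4 and NRF ZT20 replicates 3 and 4. Without the 4 libraries that stood apart, which include the low DRF value, it was 0.49 (adjusted p = 0.00823). At ZT8, DRF hearts, then fed, had 29.9, 29.6, 32.6 and 29.3 TPM and NRF hearts 25.9, 20.5, 20 and 20.8 TPM. The ZT8 groups did not overlap either, yet 0.47 log2 did not pass the test there (adjusted p = 0.0777). Without the 4 libraries that stood apart, which include the highest of the NRF values, it was 0.55 (adjusted p = 0.0109).

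Ppargc1b, for PGC-1 beta, differed in the opposite direction to Ppargc1a in both of these comparisons. It was higher in the light phase (0.23 ± 0.08 log2, adjusted p = 0.0202) and lower under DRF, at 10.2 ± 2.02 TPM against 11.5 ± 2.25 TPM (−0.17 ± 0.06 log2, adjusted p = 0.0267). Both calls were lost under median-of-ratios scaling (0.17, adjusted p = 0.0631, and −0.12, adjusted p = 0.13) and without the 4 libraries that stood apart (0.16, 0.125, and −0.15, 0.0517). At ZT16 its DRF libraries had 9.44, 8.82, 7.81 and 5.73 TPM and its NRF libraries 10.4, 11.3, 10.3 and 10.5 TPM. The values did not overlap, but the difference of −0.40 log2 did not pass the test (adjusted p = 0.102). Its fed minus fasted difference was −0.06 log2 (95% interval −0.21 to 0.10).

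Lpin1 differed between the regimens in its timing. DRF hearts averaged 37.4 ± 6.60 TPM and NRF hearts 38.3 ± 5.5 TPM, and neither this difference (−0.04 log2, adjusted p = 0.468) nor fed minus fasted (−0.05 log2, adjusted p = 0.63) passed the test. Without ZT8, fed minus fasted was −0.22 log2 and passed (adjusted p = 0.0289). At ZT0, DRF libraries had 31.9, 28.2, 30.1 and 29.3 TPM and NRF libraries had 47.6, 35.6, 47.0 and 41.5 TPM. All DRF values lay below all NRF values (−0.50 ± 0.11 log2, adjusted p = 0.00121). At ZT8 the order was the other way round, with 41.1, 42.1, 46.9 and 38.8 TPM under DRF and 33.7, 29.7, 34.9 and 34.5 TPM under NRF. These did not overlap, although 0.34 log2 did not pass the test (adjusted p = 0.117). It passed without the 4 libraries that stood apart (0.35, 0.0402) and under median-of-ratios scaling (0.41, 0.0397). At ZT24 Lpin1 read 33.1, 37.5, 38.7 and 36.8 TPM in DRF hearts and 48.9, 43.8, 36.3 and 42.9 TPM in NRF hearts, which overlapped (−0.22 log2, adjusted p = 0.178), so the ZT0 contrast was seen in only part at the same hour a day later.

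Rhythms of 24 h were fitted within each regimen. Under NRF, 4 of the 10 regulators were rhythmic, beside 37.2% of all genes. Rxrg peaked at ZT1.46 ± 0.633 (SE in hours) with an amplitude of 0.26 log2 (adjusted p = 3.78e-05), Lpin1 at ZT22.4 ± 0.831 (0.19, 0.00106), Esrrg at ZT4.36 ± 0.701 (0.18, 0.000999) and Esrra at ZT22.0 ± 1.16 (0.11, 0.021). Under DRF, 3 were rhythmic, beside 32.2% of all genes. Ppargc1a peaked at ZT17.2 ± 0.783 (amplitude 0.27 log2, adjusted p = 0.0051), Lpin1 at ZT14.7 ± 0.966 (0.21, 0.00883) and Ppargc1b at ZT1.94 ± 1.22 (0.20, 0.0317). The Ppargc1b rhythm was lost without the 4 libraries that stood apart (adjusted p = 0.058), and without any one of 7 libraries (adjusted p = 0.0511 to 0.0736): DRF ZT4 replicate 1, ZT12 replicates 1 and 2, ZT16 replicates 3 and 4, and ZT24 replicates 1 and 4. Ppara, Ppard, Pparg and Rxra were called rhythmic under neither regimen. Under median-of-ratios scaling Ppard (adjusted p = 0.0371) and Rxra (0.0424) were rhythmic under NRF, and without ZT20 Ppara was, at an amplitude of 0.24 against 0.12 log2 (0.022). Calls were also gained by Ppargc1b under NRF without ZT4 (0.27 against 0.17, 0.0101), and under DRF by Esrra without ZT16 (0.15 against 0.09, 0.0371) and Esrrg without ZT8 (0.26 against 0.14, 0.0392). The DRF rhythm of Pparg missed the threshold (amplitude 0.16 log2, adjusted p = 0.0572) and passed without the 4 libraries that stood apart (0.20, 0.0304) and under median-of-ratios scaling (0.20, 0.011), while with the marker sums as covariates it was 0.11 (0.182). Without the libraries that stood apart the Ppargc1a and Lpin1 rhythms under DRF had adjusted p of 0.0129 and 0.0192, and that of Esrra under NRF 0.00585. The Esrra rhythm was lost without ZT12 (amplitude 0.07, adjusted p = 0.265), ZT20 (0.0825) or ZT24 (0.0594) and without replicate number 2 (0.0972) or 3 (0.153). The Ppargc1a rhythm was lost without ZT4 (0.112) or ZT16 (0.188), and that of Lpin1 without ZT0 (0.0524), ZT4 (0.0739) or ZT16 (0.1).

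The rhythm itself differed between the regimens for 4 regulators, beside 27.5% of all genes. These were Lpin1 (adjusted p = 0.000199), Rxrg (0.000211), Esrrg (0.0178) and Esrra (0.0289), and the other 6 did not pass. Of these, Ppard passed under median-of-ratios scaling (0.0262), with precision weights on reads (0.0394) and without replicate number 4 (0.0438), and Ppargc1a passed without ZT8, where the size of its difference was 0.36 against 0.18 log2 (0.0135). Lpin1 was the only member rhythmic under both regimens, as were 17.5% of all genes. Its peak came 7.67 ± 1.27 h earlier under DRF (shift −7.67 h, 95% interval −10.2 to −5.17 h), which lies between the classes the study calls phase locked, up to 4 h, and phase inverted, 8 h or more. The class turned to inverted without ZT4 (−8.01 h), ZT12 (−8.12 h), ZT16 (−9.33 h), ZT24 (−8.03 h) or replicate number 3 (−8.19 h). The shift rests on the DRF rhythm call, which was lost without any one of ZT0, ZT4 and ZT16. Of all genes rhythmic in both regimens, 1270 were locked, 734 intermediate and 430 inverted. All 6 fatty acid oxidation genes differed in rhythm, and the 5 that were rhythmic in both regimens were all inverted. Ucp3 peaked at ZT6.23 under NRF and ZT21.8 under DRF, and Cpt1a at ZT7.74 and ZT22.3. The Esrrg call was lost without ZT4 (0.0932) or ZT20 (0.301) and without replicate number 2 (0.0685), 3 (0.162) or 4 (0.0615). The Rxrg call was lost without ZT12 (adjusted p = 0.0925), and the Esrra call without any one of DRF ZT20 replicates 1, 2 and 4 (0.0521 to 0.0608). The Esrra call was also lost without ZT20, where the size of the difference fell from 0.16 to 0.09 log2 (adjusted p = 0.438), without ZT0 (0.0527), ZT4 (0.118) or ZT12 (0.0841), without replicate number 3 (0.23) or 4 (0.147), and on the deposited values (0.177). For Pparg, the difference did not pass (adjusted p = 0.13) but did without the 4 libraries that stood apart (0.0291), without DRF ZT12 replicate 2 (0.0359), the library with the highest adipocyte sum, and without NRF ZT8 replicate 1 (0.0499). With the marker sums as covariates its adjusted p was 0.428.

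The light phase was compared with the dark phase over the same 4 times. Of all genes, 34.1% were called, 26.4% higher in the light and 7.74% lower. Of the 10 regulators, 2 were higher (Ppargc1b and Rxrg, by 0.15 ± 0.04 log2 for the latter, adjusted p = 0.00865) and 2 lower (Ppargc1a and Lpin1, the latter at −0.19 ± 0.05 log2, adjusted p = 0.00457). The split of all calls changed with scaling, from 3667 higher of 4742 to 2575 of 4956 under median-of-ratios scaling and 2769 of 4583 on the deposited values. The Rxrg call was lost under median-of-ratios scaling (0.09 log2, adjusted p = 0.162), without ZT16 (0.12, 0.116), without replicate number 1 (0.14, 0.061) and on the deposited values (adjusted p = 0.112). With the boundary times ZT0, ZT12 and ZT24 added, the Rxrg difference was 0.00 (0.995), and without the 4 libraries that stood apart it was 0.14 (0.0116). The Ppargc1b call was lost without ZT8 (0.20, 0.116), ZT16 (0.16, 0.254) or replicate number 3 (0.094) or 4 (0.0513) and on the deposited values (0.0672), and with the boundary times the difference was 0.07 (0.441). Rxra was called lower in the light under median-of-ratios scaling (−0.06, 0.0267), and Esrrg, at 0.06 (0.435), was called higher without ZT4 (0.15, 0.0429) or ZT20 (0.17, 0.0432). Ppargc1a and Lpin1 stayed called under that scaling, at −0.38 (2.06e-05) and −0.25 (0.000142). Both calls were lost without ZT16 (Ppargc1a −0.21, adjusted p = 0.059, and Lpin1 −0.14, 0.123), and that of Lpin1 also without ZT4 (−0.13, 0.149).

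Over the whole day 28.9% of all genes differed in mean level between regimens, and these were mostly lower under DRF, at 26.1% against 2.87% higher. Of the regulators, Ppard, Rxra, Esrra and Ppargc1b were lower and Ppargc1a was higher, while under median-of-ratios scaling 2 were lower (Ppard and Rxra) and 2 higher (Ppargc1a and Esrrg). Ppargc1a stood at 30.1 ± 6.22 TPM in DRF hearts and 24.7 ± 3.60 TPM in NRF hearts, a difference of 0.26 ± 0.05 log2 (adjusted p = 0.000131). Esrra stood at 171 ± 15.4 and 182 ± 17.6 TPM (−0.08 ± 0.03 log2, adjusted p = 0.0209). Here too the split depended on the scaling. Genes called higher were 399 of 4020 here, 1254 of 2809 under median-of-ratios scaling and 735 of 2741 on the deposited values, and the median difference of all genes was −0.048 and 0.002 log2 under the first 2. Under median-of-ratios scaling Esrra lost its call (−0.03, adjusted p = 0.572), and it also did without the 4 libraries that stood apart (−0.07, adjusted p = 0.0766) and without ZT20 (−0.04, adjusted p = 0.4), while Ppargc1a was at 0.32 (1.9e-05) under median-of-ratios scaling. The Esrrg difference, 0.09 log2 (adjusted p = 0.0869), passed without the 4 libraries (0.09, 0.0394) and without ZT4 (0.16, 0.00138). Some cell type marker lists moved with regimen too, and under DRF 4 of 6 endothelial, 3 of 6 fibroblast and 4 of 6 macrophage markers were lower. So were 2 of the 3 skeletal muscle markers tested. Under median-of-ratios scaling 3, 2, 2 and 1 of these were lower. Adipocyte and red blood cell markers gave 0 calls, while 1 atrial marker was higher. Of the cardiomyocyte markers 1 was higher and 1 lower. The part of the markers in these differences was not tested.

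At single times the regulators gave 8 calls among 70 pairs of gene and time, beside 7.21% of all such pairs over all genes. At ZT0 the regulators gave 2 calls (Ppard and Lpin1), beside 11.5% of all genes, and at ZT12 they gave 1 (Rxrg), beside 7.64%. At ZT16 they gave 2 (Rxra and Ppargc1a), beside 6.87%, and at ZT20 they gave 3 (Ppargc1a, Esrra and Esrrg), beside 14.8%. They gave 0 at the other times, where 0.446% (ZT4), 0.353% (ZT8) and 8.83% (ZT24) of all genes were called. DRF and NRF libraries did not overlap in 12 of the 70 pairs, 5 with DRF above and 7 below, beside 13.2% of all pairs over all genes.

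Atrial markers also varied between hearts, from 95 to 5490 TPM in sum under DRF (median 1800) and from 129 to 4400 TPM under NRF (median 609). With the summed atrial and adipocyte markers as covariates, the regulator calls were kept except for Ppargc1a at ZT20 (adjusted p = 0.0535) and the mean level of Ppargc1b (0.0804). The mean level of Esrrg was then called higher under DRF (0.13 log2, adjusted p = 0.0149, against 0.09 and 0.0869 without the covariates), as was its difference at ZT24 (0.35, 0.0319), which was also called without the 4 libraries that stood apart (0.25, 0.0447).

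Target genes of these regulators were read from lists, and their membership was chosen with results of these data known. Of 30 PPAR target genes, 28 passed the filter on low values, and 7 were lower and 0 higher in the fed state, beside 2.85% and 7.00% of all genes, with a median of 0.00 log2. These counts were the same under median-of-ratios scaling. The largest differences were those of Angptl4, an inhibitor of lipoprotein lipase, at −2.22 log2 (adjusted p = 1.07e-06), and Pdk4, a pyruvate dehydrogenase kinase, at −2.11 (1.48e-08). The acyl-CoA thioesterases Acot1 at −0.70 (0.000443) and Acot2 at −0.35 (0.0154) came next. The rhythm differed for 20 of the 28, beside 27.5% of all genes, and for 17 under median-of-ratios scaling. Of the 12 rhythmic in both regimens, beside 17.5% of all genes, 5 were inverted, 7 intermediate and 0 locked. In the fed versus fasted test 7 of 28 PPAR targets and 0 of the 3 PPAR receptor transcripts were called, and these counts were not compared by a test. With only 3 receptors, and targets chosen with results known, the counts cannot show a difference.

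Of 22 ERR and PGC-1 target genes, 1 was higher in the fed state and 0 were lower, beside 7.00% and 2.85% of all genes, with a median of 0.01 log2. In rhythm 3 differed, beside 27.5% of all genes. Under median-of-ratios scaling 0 were higher and 1 lower, with a median of −0.01 log2. There 1 differed in rhythm, beside 4590 of all 13875 genes tested. The 1 gene called higher in the fed state was Perm1, a muscle regulator induced by PGC-1 and ERR, at 0.14 log2 (adjusted p = 0.0402). The enzyme subunit genes Cycs (0.09, adjusted p = 0.175) and Cox5a (−0.02, adjusted p = 0.835), named as examples after their values were seen, did not pass. Of 29 other cofactors and partners of the pathway, 3 were higher and 2 lower when fed, beside 7.00% and 2.85% of all genes, with a median of 0.05 log2, and 16 differed in rhythm, beside 27.5% of all genes. Under median-of-ratios scaling 3 were higher and 5 lower. The largest differences were those of Cited2, a coactivator that binds CBP and p300, at −0.39 (0.000947), the chromatin regulator Asxl1 at −0.19 (0.0171) and the coactivator Ncoa1 at 0.15 (0.0135). Perm1 and Tfam belong to both of these lists.

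Of 14 clock genes with known links to the regulators, all were rhythmic in both regimens, beside 17.5% of all genes. For 13 of them the shift was no more than 4 h, and 13 differed in rhythm, beside 27.5% of all genes. In the fed versus fasted test 5 were higher and 2 lower, beside 7.00% and 2.85% of all genes, with a median of 0.15 log2. The period genes Per2 and Per3 were higher, by 0.71 (7.4e-05) and 0.58 (2.23e-05), and Arntl, the core activator, was lower, at −0.52 (0.00205). In rhythmic genes this contrast also takes up any shift or change of amplitude between the regimens, and these cannot be told apart from feeding here. Per2 peaked at ZT14.8 under NRF and ZT13.3 under DRF.

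Over the 14 group means, the regulators were compared with the mean profile of the 6 fatty acid oxidation genes. Pearson's r was 0.58 for Esrrg, 0.47 for Ppargc1b and 0.44 for Pparg, and −0.55 for Lpin1 and −0.45 for Esrra. It was −0.33 for both Ppard and Rxrg, and between −0.07 and 0.03 for Ppargc1a, Ppara and Rxra. Among the regulators, Ppard and Rxra had the highest r with each other (0.74), and the lowest values were −0.66 for Rxrg with Pparg and −0.63 for Ppargc1a with Ppargc1b. These are descriptions over 14 means from shared libraries, and no test was made.

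The genes most like each regulator over the 14 group means were found among all tested genes. Esrrg was nearest to Ppfibp2 (r = 0.928), Cyb5r2 (0.913) and Clba1 (0.912), and Esrra to Eif2b4 (0.902), Dnajb2 (0.884) and Nsun5 (0.881). Ppara had the least close neighbours, Rpl23a-ps3 (0.725), a pseudogene whose reads may come from its parent gene, Atp7a (0.724) and Rbm24 (0.72). Ppard was nearest to Sept8 (0.942), Uggt1 (0.925) and Lamp1 (0.919), and Pparg to Cep120 (0.883), Fas (0.833) and Cbx2 (0.827). For Rxra the neighbours were Camta2 (0.926), Atp6ap1 (0.906) and Phf2 (0.898), and for Rxrg they were Fam220a (0.922), Ank1 (0.92) and Colq (0.91). Ppargc1a came with Bdnf (0.831), Tnik (0.824) and Fnip2 (0.81), Ppargc1b with Adamtsl5 (0.947), Lig3 (0.905) and Sbno2 (0.903), and Lpin1 with Gm26862 (0.869), Tead1 (0.842) and Ralgapa1 (0.84). None of these 30 genes is one of the 6 fatty acid oxidation genes, which with 13893 genes to draw from carries no weight.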

How the data were processed

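PolyA RNA of whole hearts was sequenced in paired 150 bp reads with a kit that does not mark strand. The submitters' processing notes name HISAT2 2.0.5, featureCounts 1.5.0-p3 and mm10, and the annotation release is not given in the sources used here. The deposited values are named TPM by the authors, but they are of another kind: within a library each value equals a constant times the logarithm of 1 plus scaled reads, divided by exon length. Whole reads were recovered from these steps. GENCODE M21 (GRCm38) gave an exon length for 22852 genes, which was used for 21960 genes and for 70 more that could not be tested. For 626 genes, Esrra among them, a length giving whole reads was searched for. For 184 more the best of several such lengths was taken, and 24 genes were left out. Of 1191533 values tested in the kept genes, 99.9989% came within 0.1 of a whole read, but lengths were kept or chosen by this same criterion. TPM was recomputed from the reads, since the planned tests had assumed linear TPM, and the tests were kept. No pair of libraries was identical. The 13893 genes averaging 1 TPM or more were tested on log2(TPM + 1), a scale that understates changes of low genes.

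Models were fitted across all genes with limma 3.58.1 (R 4.3.3, variances trended on mean level), with 14 group means for the contrasts and cosine and sine terms of 24 h for rhythms, and two-sided p-values were adjusted by Benjamini-Hochberg over all tested genes within each comparison, at a threshold of 0.05. MetaCycle, which the study used, was not run. Python 3.11.15, NumPy 2.4.6, pandas 2.3.3 and matplotlib 3.10.9 were used. The steps were tested on simulated data. The members and lists were chosen with earlier results of these data known. All 10 members are named, the 6 study-named oxidation genes, of the PPAR targets the 4 and of the other lists up to 3 called genes with the largest fed minus fasted difference, and the 3 genes most alike each member. Alternatives covered scaling, pseudocount, filter, the values as deposited, precision weights on reads, libraries, times, a replicate block and marker covariates. PCR copies cannot be told from molecules. The authors' columns were all matched to a sample.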

Additional observations from a re-analysis of the deposited data

Results flagged for a closer look

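Within 140 groups of 4 libraries (10 regulators in 14 groups), 9 held a library far from the other 3 by Dixon's criterion, and chance flags about 1 in 20 such groups. In Pparg it was DRF ZT16 replicate 2 at 14.1 TPM (others 10.3 to 10.8), the library with the highest Adipoq, 34.1 TPM. In Rxra it was DRF ZT4 replicate 2 at 38.9 TPM (35.5 to 35.8), the library with the highest sum of red blood cell markers, and DRF ZT12 replicate 4 at 38.5 TPM (33.4 to 34.1). In Rxrg it was DRF ZT8 replicate 2 at 53.0 TPM (63.9 to 64.4) and NRF ZT4 replicate 2 at 66.2 TPM (59.8 to 60.3). In Ppargc1a it was DRF ZT16 replicate 4 at 33.4 TPM (42.4 to 42.8) and NRF ZT8 replicate 1 at 25.9 TPM (20 to 20.8). In Esrrg it was DRF ZT20 replicate 2 at 13.5 TPM (18.2 to 18.4) and NRF ZT12 replicate 2 at 11.1 TPM (13.4 to 13.5). Of these 9 libraries, DRF ZT4 replicate 2, DRF ZT20 replicate 2 and NRF ZT8 replicate 1 also lay nearer to other groups over the 1000 most variable genes.

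The rhythm differed between DRF and NRF, by the interaction test, for Lpin1 (adjusted p = 0.000199), Rxrg (0.000211), Esrrg (0.0178) and Esrra (0.0289).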

How the results depend on the processing

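Of 30 called regulator results, 10 kept their call under every alternative of up to 20, and 26 did without any single one of the 56 libraries. Of 100 results that were not called, 28 were called under some alternative. The count of regulators called fed versus fasted, 2, became 1 under median-of-ratios scaling, 1 on the deposited values, 0 without ZT4, 4 without ZT8 and 0 without ZT20. For light versus dark, 4 became 0 without ZT16 and 2 with the boundary times (ZT0, ZT12 and ZT24) added. The 3 rhythms under DRF became 0 without ZT4 and 1 without ZT16, and the 4 different rhythms became 2 without ZT4, 2 without ZT12 and 2 without ZT20. The 5 different mean levels became 3 without ZT0, and the 8 calls at single times 5 without ZT20. The Lpin1 shift of −7.67 h became −5.79 h without ZT8 and −9.33 h without ZT16. Only Rxrg reversed, from −0.02 to 0.10 log2 (adjusted p = 0.04) in fed minus fasted with the boundary times added. Apart from the fewer times or libraries fitted, the cause was not tested.

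With each replicate number left out, the counts ranged from 0 to 2 for fed versus fasted, 3 to 4 for light versus dark, 3 to 4 and 0 to 3 for rhythms under NRF and DRF, 2 to 4 for different rhythms, 3 to 4 for mean levels and 5 to 10 at single times, and the Lpin1 shift from −8.19 to −7.21 h. Left out singly, libraries gave 2 to 2, 4 to 5, 4 to 5, 2 to 4, 3 to 5, 5 to 6 and 7 to 10 calls in that order. The Esrrg fed minus fasted call was lost without replicate 3 (−0.21, adjusted p = 0.1), as was that of Esrra (0.221), which was also lost without replicate 4 (0.10, 0.162), where Ppard was gained (0.13, 0.0499). Without replicate 1 the DRF rhythms of Ppargc1a (0.0618), Lpin1 (0.142) and Ppargc1b (0.213) were lost, the last also without replicate 2 (0.11) or 3 (0.102). The labels say nothing of what a replicate number shares, so the libraries were not taken as paired. Deviations of same-numbered libraries had a median r of 0.013 over 364 pairs (lowest −0.395), against 0 over 1092 other pairs, and 21 of 56 libraries were closest to their own number, where 14 are expected from the share of such libraries. A replicate block gave the same counts, 2, 4, 4, 3, 4, 5 and 8, and changed no regulator call. The fits without the 4 libraries that stood apart, without single libraries and with marker covariates were chosen after seeing the data. Without those 4 the counts were 2, 3, 4, 3, 5, 4 and 12.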
